A study of Mus musculus with 6 samples.

Results

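The oligoadenylate synthetase family was followed through the 8 genes of the count table whose Ensembl identifiers map to Oas1a, Oas1b, Oas1c, Oas1g, Oas2, Oas3, Oasl1 or Oasl2. They are 8 of 55401 genes in the table, and 8 of 8 were abundant enough to be among the 19554 genes tested. All 8 transcripts were more abundant in each MRL/lpr library than in any MRL/mpj library, as were 19.6% of all genes tested. Of the 8 members, 7 passed the test between the strains with an increase, against 11.1% of all genes tested. Increases ran from 2.41-fold for Oas1b to 39.4-fold for Oas1g, which met the abundance filter through its MRL/lpr libraries alone.

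The libraries were made from microglia, the resident macrophages of the brain, isolated from untreated mice at 6 weeks of age and selected magnetically for CD11b. CD11b is a surface protein that other myeloid cells also carry. One group, MRL/lpr, is a lupus-prone strain with the lpr mutation of Fas. The other, MRL/mpj, shares the MRL background without that mutation, and each group had 3 libraries. The number of animals behind a library is not given in the sources used here.

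Oligoadenylate synthetases are enzymes that bind double-stranded RNA, a hallmark of viral replication, and then join ATP into short chains of adenylate with 2′-5′ bonds, called 2-5A. In an infected cell 2-5A sets off the breakdown of cellular and viral RNA, so that translation stops. Most genes of the family are switched on by type I interferon, whose signal ends in a transcription factor complex, with STAT2 and IRF9 among its parts, on a short DNA motif, the interferon-stimulated response element. In the mouse the Oas1 gene has been copied repeatedly, and only some of the copies are known as active enzymes.

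All 8 members lie on chromosome 5 in 2 groups. In GENCODE M21 on GRCm38, Oasl2 (chr5:114896936-114912234, plus strand) and Oasl1 (chr5:114923240-114937915, plus strand) stand side by side. After a gap of 5.79 Mb follow Oas2 (chr5:120730333-120749853, minus strand), Oas3 (chr5:120753098-120777661, minus strand) and Oas1c (chr5:120800194-120812514, minus strand). Oas1b (chr5:120812635-120824163, plus strand, annotated as a polymorphic pseudogene), Oas1g (chr5:120876142-120887613, minus strand) and Oas1a (chr5:120896256-120907521, minus strand) complete the members of that cluster. With the copies Oas1d, Oas1e, Oas1f and Oas1h it holds 10 genes in 191 kb.

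The sequences just before the start sites show how closely some of these genes resemble each other. RefSeq promoter windows on GRCm38.p6, from 250 bases before to 50 bases after the start, were found for 6 of the 8 members, with no entry for Oas1b or Oas2. These are reference sequences of C57BL/6J, and the MRL strains may differ from them. The windows were searched on both strands for the core of the interferon-stimulated response element, taken as GAAA, any 2 bases, and GAAA. The core was present in 4 of the 6 windows (Oas1a, Oas1c, Oas1g and Oas3) and was not found in those of Oasl1 and Oasl2. Of all 27025 genes with a window, 3.99% held it in at least 1 window. The 120 bases before the start of those 4 genes are shown from 5′ to 3′ on the strand of each gene, with the core and the bases that continue it in capitals. They come from chr5:120907526-120907645 (Oas1a), chr5:120887614-120887733 (Oas1g), chr5:120812515-120812634 (Oas1c) and chr5:120777660-120777779 (Oas3), each on the minus strand.
Oas1a: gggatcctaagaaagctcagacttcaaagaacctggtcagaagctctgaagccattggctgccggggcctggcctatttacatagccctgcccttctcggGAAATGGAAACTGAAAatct
Oas1g: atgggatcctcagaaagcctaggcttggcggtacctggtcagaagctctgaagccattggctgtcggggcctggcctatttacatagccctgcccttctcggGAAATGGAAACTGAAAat
Oas1c: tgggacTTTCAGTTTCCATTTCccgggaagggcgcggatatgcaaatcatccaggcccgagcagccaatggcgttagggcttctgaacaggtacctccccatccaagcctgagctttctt
Oas3: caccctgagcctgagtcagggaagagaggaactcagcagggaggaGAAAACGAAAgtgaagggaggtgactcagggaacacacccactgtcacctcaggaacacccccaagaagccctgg

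Oas1a and Oas1g carried the same 16 bases, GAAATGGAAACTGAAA, in which 2 copies of the core overlap. The first copy began 20 bases before the start of Oas1a and 18 bases before that of Oas1g. The same 16 bases occurred once more between Oas1c and Oas1b, which are transcribed away from each other with 120 bases between their annotated starts. There the run read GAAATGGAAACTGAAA on the strand of Oas1b, at chr5:120812613-120812628, and ended 6 bases short of the Oas1b start. It lay 98 bases from the Oas1c start, where it appears in reverse complement above. Among all windows, 7 windows of 5 genes held this run, namely Oas1a, Oas1c, Oas1g, Apol9a and Apol9b. Apol9a and Apol9b, which code for apolipoproteins L, were named after this search. They rose in MRL/lpr by 1.93 (SE 0.55) and 2.23 (SE 0.42) on the log2 scale, with adjusted p = 0.0368 and 0.00458 in edgeR's quasi-likelihood test. Oas3 held 1 core, 75 bases before its start. A match describes letters only, and binding was not measured.

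Total counts per library ran from 45481609 to 49846634. Counts of 4 were far more frequent than their neighbours: 1138 to 1288 genes per library had 4 counts, against 320 to 415 with 3 and 211 to 261 with 5, so a low count may rest on fewer read pairs than it states. In MRL/lpr replicate 3, 6.38% of all counts fell on CT010467.1, against at most 0.457% in each other library. Fas did not check the labels, with a log2 fold change of -0.06 (SE 0.21, edgeR adjusted p = 0.887). Xist, expressed from the inactive X chromosome, had 8886 to 11319 counts in MRL/lpr and 27 to 38 in MRL/mpj, although the methods describe female mice. Summed counts of 4 Y-linked genes were 8408 to 11783 in MRL/lpr and 13155 to 15046 in MRL/mpj. These values do not match female mice alone in either strain, and sex and strain cannot be told apart. Each p-value below measures the spread between libraries, which may be technical. With 3 libraries against 3, an exact permutation test cannot go below p = 0.1.

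The strains were compared in MRL/lpr minus MRL/mpj direction, so a positive log2 fold change means a higher level in MRL/lpr. The threshold was an adjusted p-value under 0.05. CPM values, counts relative to library size, were scaled by TMM, edgeR's correction for library composition, and are given as mean ± SD over 3 libraries. Of the 8 members, 7 rose, 0 fell and 1 (Oas1c) did not pass. No member was lower at an unadjusted p under 0.05 either. Among all genes tested, 2178 (11.1%) rose and 1772 (9.06%) fell. The 7 members that rose also exceeded a log2 fold change of 1, which 4.67% of all genes did while passing the test upward. The CPM ranges of the strains did not overlap for 8 of 8 members, with MRL/lpr above, as for 19.6% of all genes. The median log2 fold change was 2.38 over the members and -0.01 over all genes tested.

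**Figure D1:**
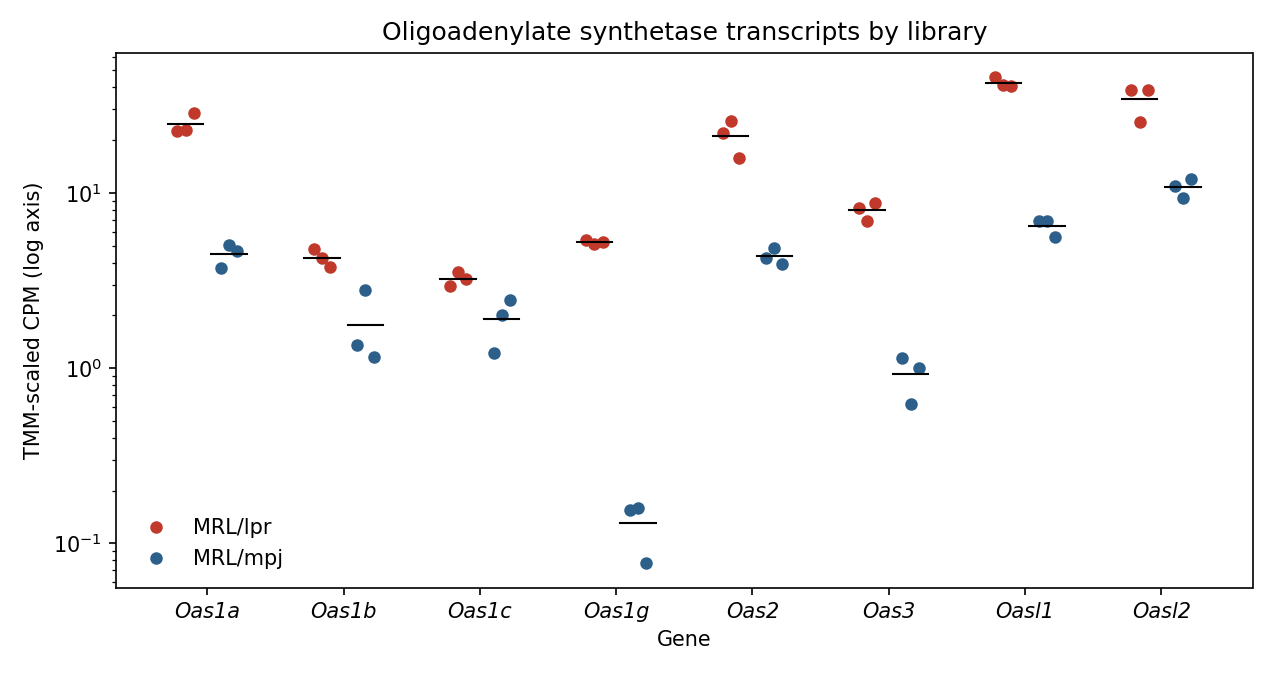
TMM-scaled CPM (log axis) of the 8 members in each of the 6 libraries, with 1 point per library in the 2 strains and a line at each mean. Each member's MRL/lpr points lie above its MRL/mpj points, from Oas1g with 5.14 to 5.38 against 0.077 to 0.160 down to Oas1c with 2.96 to 3.55 against 1.23 to 2.44.

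The enzymes of the short form are Oas1a and Oas1g, both known to make 2-5A. Oas1a (ENSMUSG00000052776) had 1065, 1076 and 1201 counts in MRL/lpr replicates 1 to 3, and 191, 253 and 243 counts in MRL/mpj. The strains were far apart, and the libraries of each strain were close to each other. The mean was 24.8 ± 3.45 CPM against 4.48 ± 0.691, a log2 fold change of 2.46 (SE 0.16) with a 95% interval from 2.09 to 2.83 and adjusted p = 9.21e-06 in edgeR's quasi-likelihood test. This is a 5.52-fold difference.

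Oas1g (ENSMUSG00000066861) was nearly absent from the control strain. Its counts were 253, 242 and 218 in MRL/lpr and 8, 8 and 4 in MRL/mpj. Each MRL/mpj count was under the filter's minimum count of 10, so Oas1g entered the test through MRL/lpr alone. The MRL/lpr libraries differed little among themselves (5.25 ± 0.123 CPM), and the MRL/mpj level of 0.131 ± 0.0468 CPM rests on few reads. The log2 fold change was 5.30 (SE 0.34; 95% interval 4.54 to 6.07; edgeR adjusted p = 7.22e-06), the largest of the 8 members. With each count divided by 4 it was 5.22. It was 1.47 on the log2(FPKM + 1) scale, where the added 1 exceeds each MRL/mpj value.

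Reads of Oas1a and Oas1g can be hard to separate. Their coding sequences were 96.7% identical over 1101 bases in the reference, and no other pair in the family was as close. Oas1d and Oas1e followed with 90.7%, and among members Oas1a and Oas1b with 81.1%. Of the stretches of 100 bases in the annotated Oas1a transcript, 40.9% also occurred in Oas1g, as did 31.2% of those of Oas1g in Oas1a. No other member shared such a stretch with any family gene. Counts of the pair were therefore also summed before the fit, a choice made after the data were seen. The sums were 1318, 1318 and 1419 counts in MRL/lpr and 199, 261 and 247 in MRL/mpj, a log2 fold change of 2.70 (SE 0.15, edgeR adjusted p = 3.38e-06). The increase of the pair as a whole does not depend on how reads were split between them.

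The split itself also differed between the strains. Oas1g held 19.2% (exact binomial 95% interval 17.1 to 21.4), 18.4% (16.3 to 20.6) and 15.4% (13.5 to 17.3) of the pair's counts in MRL/lpr replicates 1 to 3. In MRL/mpj it held 4.02% (1.75 to 7.77), 3.07% (1.33 to 5.95) and 1.62% (0.443 to 4.09). These intervals cover counting error only, and are too narrow if a read pair is worth 4 counts. With counts divided by 4, a choice made after the data were seen, the MRL/mpj shares rest on 2, 2 and 1 units of Oas1g and their upper bounds were 13.7%, 10.7% and 8.66%. The lowest MRL/lpr share on that scale, 15.3%, was still above them, but its own interval (11.7 to 19.4) reached below the first. Differences in sequence between the MRL strains and the reference could shift reads between the copies, and their part was not tested.

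Oas2 codes for the middle form of the enzyme, which repeats the synthetase unit, and its coding sequence has 751 codons against 367 for Oas1a. Oas2 (ENSMUSG00000032690) had 1035, 1211 and 663 counts in MRL/lpr and 218, 243 and 205 in MRL/mpj. MRL/lpr replicate 3 was the lowest of its group, but still far above the control libraries. The mean was 21.2 ± 4.98 CPM against 4.35 ± 0.469. Oas2 rose by 2.29 on the log2 scale (SE 0.19; 95% interval 1.85 to 2.72; edgeR adjusted p = 4.11e-05), which is 4.88-fold.

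Oas3 codes for the large form, with 1138 codons, and is known as a sensor of long double-stranded RNA. Oas3 (ENSMUSG00000032661) had 384, 327 and 365 counts in MRL/lpr, and 59, 31 and 52 in MRL/mpj. Its levels were 7.95 ± 0.913 CPM and 0.922 ± 0.272 CPM, with no overlap. The log2 fold change of 3.10 (SE 0.27; 95% interval 2.49 to 3.71; edgeR adjusted p = 4.99e-05) was the second largest among the members, an 8.59-fold difference.

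Oas1b and Oas1c are copies of Oas1 with other roles. Oas1b is the mouse gene of resistance to flaviviruses, and many laboratory strains carry a truncated version of it. Oas1b (ENSMUSG00000029605) had 226, 199 and 157 counts in MRL/lpr and 70, 140 and 60 in MRL/mpj. MRL/mpj replicate 2 came close to the lowest MRL/lpr library. The mean was 4.26 ± 0.526 CPM against 1.77 ± 0.897, a log2 fold change of 1.27 (SE 0.35; 95% interval 0.48 to 2.05; edgeR adjusted p = 0.0307). This call rested on single libraries. Without MRL/lpr replicate 1, MRL/lpr replicate 2, MRL/mpj replicate 1 or MRL/mpj replicate 3, the edgeR adjusted p was 0.0928, 0.0737, 0.112 and 0.0991, with log2 fold changes of 1.17, 1.27, 1.11 and 1.03.

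Oas1c (ENSMUSG00000001166), whose product is not known as an active synthetase, was the member with the smallest difference. Its counts were 139, 167 and 134 in MRL/lpr and 63, 101 and 127 in MRL/mpj. MRL/mpj replicate 3 came close to the lowest MRL/lpr library. The log2 fold change was 0.77 (SE 0.30; 95% interval 0.09 to 1.45; unadjusted p = 0.0299, adjusted p = 0.109 in edgeR's quasi-likelihood test). Means were 3.24 ± 0.297 CPM in MRL/lpr and 1.9 ± 0.617 CPM in MRL/mpj, so the libraries did not overlap although the test was not passed. Oas1b and Oas1c, on both sides of the shared run between their starts, were the members with the smallest log2 fold changes.

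The other Oas1 copies gave almost no reads. Oas1d, Oas1e and Oas1f had 0 counts in each of the 6 libraries, and Oas1h had 4 counts in MRL/lpr replicate 1 and 0 in the other 5. A count of 0 allows up to 3 counts in a library, or 12 if each read pair were worth 4 counts, so low levels of these copies were not detectable at this depth. These 4 genes were too low to be tested.

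Oasl1 and Oasl2 code for synthetase-like proteins that end in ubiquitin-like domains. OASL1 lacks synthetase activity and is known to limit translation of the mRNA of IRF7, a master regulator of interferon production. Oasl1 (ENSMUSG00000041827) had 2149, 1935 and 1712 counts in MRL/lpr and 353, 347 and 290 in MRL/mpj. Its mean of 42.6 ± 2.70 CPM was the highest of the members in MRL/lpr, against 6.46 ± 0.769 in MRL/mpj. There Oasl2 was higher in CPM, which is not corrected for transcript length, but lower per length, as given below. The log2 fold change of Oasl1, 2.72 (SE 0.12; 95% interval 2.45 to 2.99; edgeR adjusted p = 1.04e-06), had the smallest error among the members, a 6.59-fold difference.

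Oasl2 (ENSMUSG00000029561), known to retain synthetase activity, had 1817, 1192 and 1615 counts in MRL/lpr and 566, 470 and 622 in MRL/mpj. MRL/lpr replicate 2 was the lowest of its strain and still above each control library. The mean was 34.2 ± 7.69 CPM against 10.8 ± 1.29. Oasl2 rose by 1.66 on the log2 scale (SE 0.18; 95% interval 1.27 to 2.06; edgeR adjusted p = 0.000167), which is 3.17-fold. The intervals of its log2 fold change and that of its neighbour Oasl1 did not overlap.

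Levels of different genes were compared per transcript length, on the deposited FPKM values (fragments relative to transcript length and library size). In MRL/lpr, Oasl1 stood highest with 14.0 ± 1.19 FPKM, followed by Oas1a with 11.2 ± 1.18. The libraries of these top members did not overlap in MRL/lpr. Oasl2 with 4.57 ± 0.984 and Oas2 with 4.08 ± 1.07 came next and overlapped. Oas1g with 1.91 ± 0.0802 and Oas1b with 1.82 ± 0.275 overlapped as well, and Oas1c with 1.15 ± 0.116 and Oas3 with 0.953 ± 0.0896 closed the order without overlap. In MRL/mpj, Oasl1 with 2.29 ± 0.272 and Oas1a with 2.21 ± 0.340 overlapped at the top, above Oasl2 with 1.57 ± 0.187. Oas2 (0.903 ± 0.0971), Oas1b (0.820 ± 0.419) and Oas1c (0.730 ± 0.239) followed, with overlapping libraries. Oas3 (0.120 ± 0.0361) and Oas1g (0.05 ± 0.0173) were last, so that Oas1g stood in the middle of the order in MRL/lpr and at its end in MRL/mpj.

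Summed over the members, the FPKM values were 41.47, 38.63 and 38.87 in MRL/lpr and 8.06, 9.55 and 8.47 in MRL/mpj. The means of 39.7 ± 1.57 and 8.69 ± 0.770 differ 4.56-fold. The sums were more even between libraries of a strain than several single members were. Oasl1 and Oas1a together gave most of the sum in each library, with 62.1% to 65.6% in MRL/lpr and 50.5% to 53.0% in MRL/mpj. The share of Oasl1 was 35.2% ± 1.80 in MRL/lpr and 26.5% ± 3.50 in MRL/mpj, without overlap. That of Oas1a was 28.3% ± 3.63 and 25.3% ± 2.32, with overlapping libraries. The share of Oas1g was 4.81% ± 0.106 in MRL/lpr and 0.576% ± 0.200 in MRL/mpj. Shares of Oas1b (4.59% ± 0.560 against 9.23% ± 3.88), Oas1c (2.90% ± 0.376 against 8.37% ± 2.64) and Oasl2 (11.5% ± 2.23 against 18.2% ± 3.40) were lower in MRL/lpr, without overlap between the libraries. The share of Oas2 was 10.3% ± 2.76 against 10.4% ± 0.639, a difference within its spread. Shares depend on each other, and no test was run on them.

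**Figure D2:**
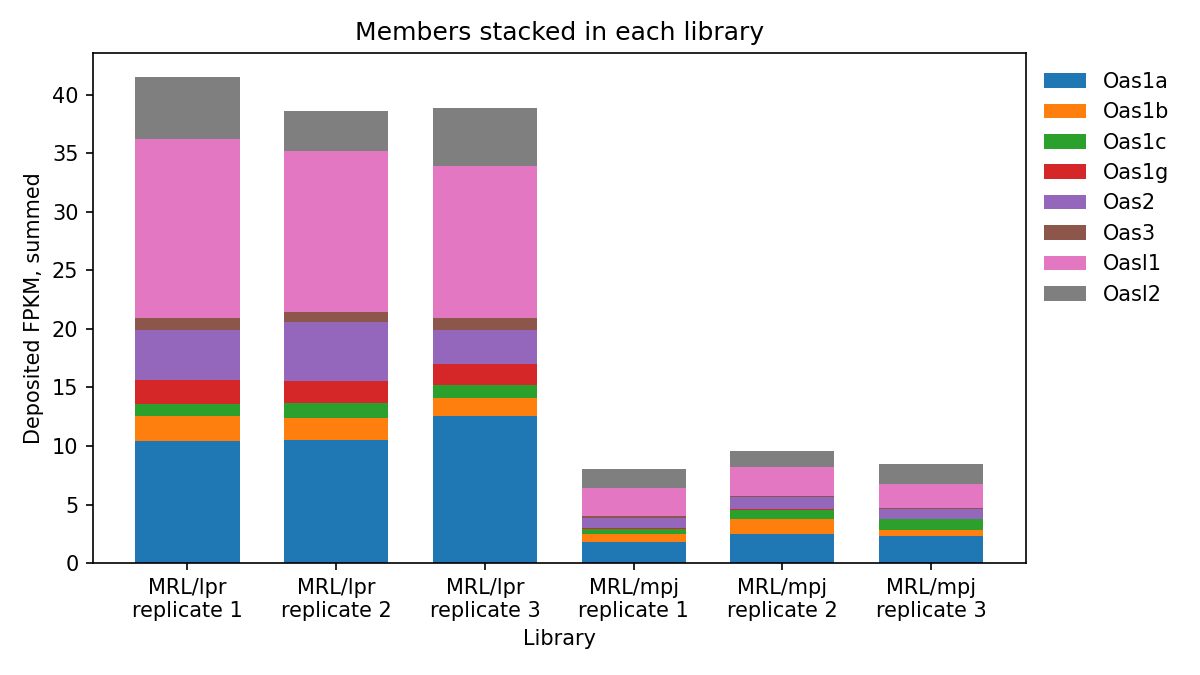
Deposited FPKM of the 8 members stacked in each of the 6 libraries, with 1 colour per member and the full bar giving their sum. The MRL/lpr bars reach 38.63 to 41.47 FPKM and the MRL/mpj bars 8.06 to 9.55, with Oasl1 and Oas1a as the largest blocks in MRL/lpr.

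Products of 2 genes outside the family act after the synthetases. Pde12, which codes for a phosphodiesterase that breaks down 2-5A, rose by 0.36 on the log2 scale (SE 0.10, edgeR adjusted p = 0.0312), with counts of 1278, 1113 and 1042 against 961, 983 and 1069. Its call was lost without MRL/lpr replicate 1 or without any 1 of the MRL/mpj replicates 1 to 3, at edgeR adjusted p = 0.110, 0.116, 0.0983 and 0.0614. Abce1, a ribosome recycling factor that is also known to restrain the 2-5A pathway, had a log2 fold change of -0.22 (SE 0.08, edgeR adjusted p = 0.107), with counts of 3441, 3268 and 2636 against 3893, 3980 and 4343. In CPM the strains did not overlap for either gene. No measurement was made of enzyme activity or of 2-5A itself.

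A list of 17 genes of the 2-5A pathway and of RNA sensing, with the untested Oas1 copies, Pde12 and Abce1 among them, put these values in context. Of its 13 genes tested, 7 rose and 0 fell in edgeR's test, where 11.1% of all genes tested rose and 9.06% fell. Of the 13, 1 (Abce1) was lower at an unadjusted p under 0.05. The median log2 fold change of the 13 was 0.54, against -0.01 over all genes tested. Among the 9 genes of RNA sensing, 6 rose. Zbp1, a sensor of Z-form nucleic acids, had 947, 1032 and 856 counts in MRL/lpr and 50, 64 and 72 in MRL/mpj, and rose by 4.10 on the log2 scale (SE 0.17, edgeR adjusted p = 8.41e-07). Only Oas1g among the members had a larger log2 fold change.

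The helicase sensors of the RIG-I family had smaller log2 fold changes than Zbp1. Dhx58 (LGP2) rose by 1.85, Ddx58 (RIG-I) by 1.21 and Ifih1 (MDA5) by 0.54 on the log2 scale, with edgeR adjusted p = 3.21e-06, 7.32e-05 and 0.00511. Eif2ak2, which codes for PKR, a kinase that like the synthetases binds double-stranded RNA and halts translation, rose by 0.91 (SE 0.08, edgeR adjusted p = 4.78e-05). Adar, whose product edits double-stranded RNA and so limits its sensing, rose by 1.02 (SE 0.08, edgeR adjusted p = 2.07e-05). The log2 fold changes of Oas1a, Oas1g, Oas2, Oas3 and Oasl1 all exceeded those of these 5 genes. Oasl2 (1.66) and Oas1b (1.27) lay below Dhx58 and above the rest, and Oas1c (0.77) lay above Ifih1 only.

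Genes of sensing that did not pass in edgeR's test were Mavs, the adaptor of the RIG-I family (log2 fold change -0.16, adjusted p = 0.221), Tlr3, the endosomal receptor for double-stranded RNA (0.24, adjusted p = 0.124), and Trim25, a ubiquitin ligase linked to RIG-I (0.99, adjusted p = 0.22). Trim25 had 1312 and 1074 counts in MRL/mpj replicates 1 and 2 but 3288 in replicate 3. Without that library its log2 fold change was 1.63 (edgeR adjusted p = 9.25e-05). Cgas, the DNA sensor whose fold resembles that of the synthetases, and Tmem173 (STING), on which it signals, had log2 fold changes of 0.38 and -0.08 with edgeR adjusted p = 0.253 and 0.537.

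**Figure D3:**
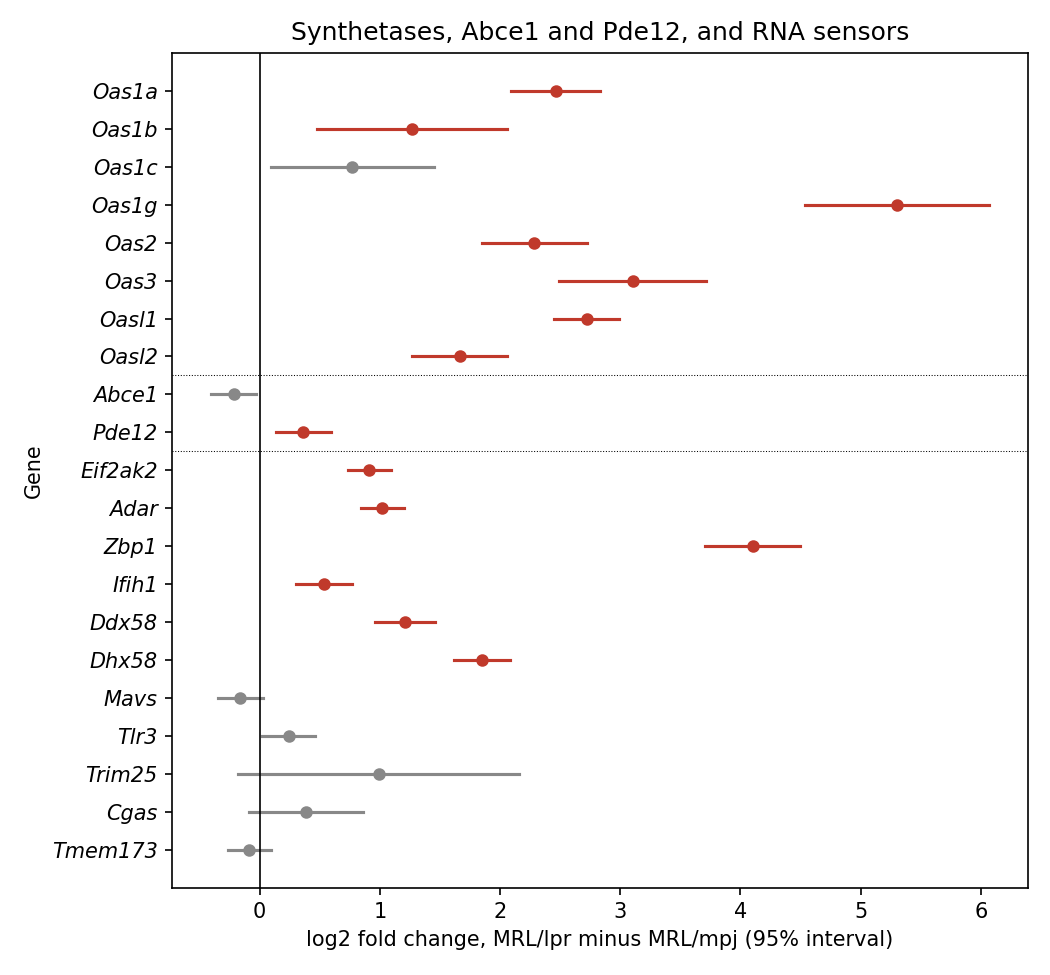
Fitted log2 fold changes, MRL/lpr minus MRL/mpj, with 95% intervals for the members (top), Abce1 and Pde12 (middle) and RNA sensors with Cgas and Tmem173 (bottom). Red marks an adjusted p-value under 0.05 in edgeR's test and grey the rest, and the points run from -0.22 for Abce1 to 5.30 for Oas1g.

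The members are textbook interferon-stimulated genes, so a list of 23 interferon genes was read beside them. Of these, 17 rose and 1 fell, beside 11.1% and 9.06% of all genes tested, with a median log2 fold change of 1.25. Each of the 12 other interferon-induced genes listed rose, with a median log2 fold change of 1.74 and a range from 0.96 for Bst2 to 5.20 for Ifi44. The member median of 2.38, Oas1g included, was above the median of these genes. All 12 lay within the range of the members, 0.77 for Oas1c to 5.30 for Oas1g, among them Ifit3 (3.30), Usp18 (2.72) and Mx1 (2.69). The upper end of that range is set by Oas1g alone, which entered the test through MRL/lpr only. The next member, Oas3 at 3.10, lay below Ifi44 and Ifit3. Of the 8 of these 12 genes with a promoter window, 5 held the core of the response element, against 4 of 6 members.

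Among 9 signalling genes of the interferon pathway, 5 rose. Irf7, whose mRNA is the known target of OASL1, had 2375, 2410 and 1916 counts in MRL/lpr and 308, 349 and 379 in MRL/mpj. It rose by 2.86 on the log2 scale (SE 0.11), next to 2.72 for Oasl1. Stat2 and Irf9, which code for parts of the complex that binds the response element, rose by 1.21 and 0.64, and the kinase genes Jak1 and Tyk2 by 0.53 and 0.28. Tyk2 lost its call without MRL/mpj replicate 1 or 2 (edgeR adjusted p = 0.0540 and 0.0782). The receptor genes Ifnar1 and Ifnar2 had log2 fold changes of -0.09 and 0.07, and Irf3 and Irf1 had -0.21 and 0.69. None of these 4 passed in edgeR's test, but Irf1 did without MRL/mpj replicate 1, at 1.08 (adjusted p = 0.000993).

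The 2 ligand genes listed had log2 fold changes of opposite sign. Ifnb1, which codes for interferon beta, had 380, 481 and 279 counts in MRL/lpr and 597, 658 and 717 in MRL/mpj, and fell by 0.63 on the log2 scale (SE 0.18, edgeR adjusted p = 0.0336). This call was lost in 5 of the 6 fits that left out a library, with edgeR adjusted p from 0.0597 to 0.116, and held only without MRL/lpr replicate 2 (0.0158). Ifng, the gene of interferon gamma, had a log2 fold change of 1.52 (edgeR adjusted p = 0.159), on 64, 71 and 26 counts against 5, 26 and 31. In CPM the strains did not overlap for Ifng, with 0.622 to 1.51 in MRL/lpr against 0.0973 to 0.596 in MRL/mpj.

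The genes near the members on chromosome 5 rose about as often as genes in general (11.1%), within a distance of 500 kb chosen after the values were seen. Around the Oas1 to Oas3 cluster, 19 other genes were tested, of which 2 rose (Ddx54 by 0.25 and Gm43579 by 0.76 on the log2 scale) and 0 fell. Their log2 fold changes ran from -1.33 for Rph3a to 0.87 for Gm42930, with a median of 0.13. Oas1a, Oas1b, Oas1g, Oas2 and Oas3 lay above this range, while Oas1c at 0.77 lay within it. Around the Oasl pair, 3 of 30 genes rose and 5 fell, with a median of 0.00. There the highest value, 1.74 for Gm42789, was just above the 1.66 of Oasl2.

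**Figure D4:**
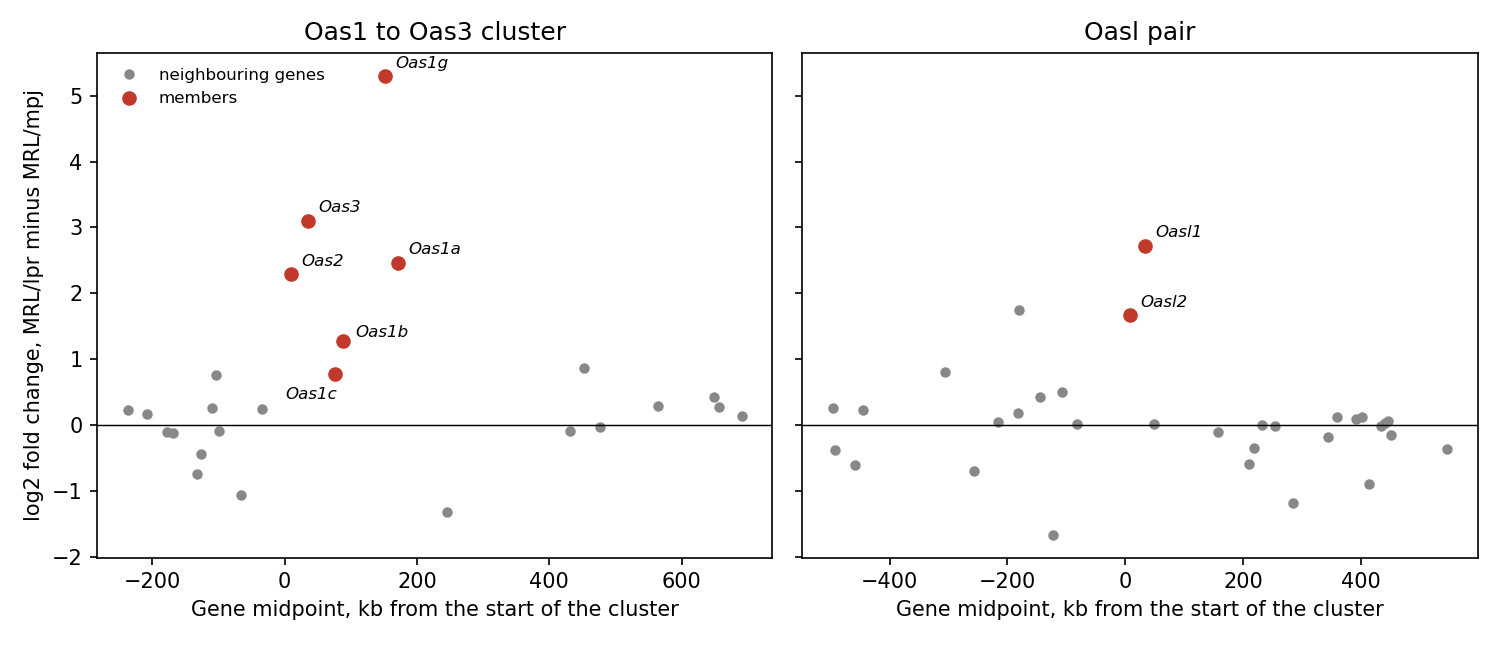
Fitted log2 fold changes, MRL/lpr minus MRL/mpj, of members (red) and other tested genes within 500 kb (grey), against the gene's midpoint in kb from the start of the Oas1 to Oas3 cluster (left) and of the Oasl pair (right). Members of the left cluster lie at 0.77 to 5.30 and its neighbours between -1.33 and 0.87.

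Genes on the opposite strand overlap 3 members. Exons are shared at Oasl1, over at most 38 bases, and at Oas1c, where reads cannot be told apart without a stated strand setting of the counting. Gm43068 within Oas2 shares no exon with it. Gm13822, antisense to Oasl1, had at most 8 counts in any library, Gm43068 at most 5, and Gm43069 at Oas1c at most 2. The 3 members concerned had 134 counts or more in each MRL/lpr library and 63 or more in each MRL/mpj library, with Oas1c the lowest in both.

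The genes whose pattern over the 6 libraries was closest to that of Oasl1, the member with the highest mean CPM over all libraries, were Ccr1, Lgi4, Pimreg, Gbp6 and Nkg7. Likeness was the root mean square difference of log2 CPM, each gene centred on its own mean, over 16364 genes compared, and it ran from 0.101 for Ccr1, a chemokine receptor gene, to 0.128 for Nkg7, a gene of cytotoxic lymphocytes. Their log2 fold changes were 2.81, 2.55, 2.71, 2.77 and 2.63, near the 2.72 of Oasl1. Gbp6, of the interferon-inducible guanylate-binding proteins, was the one nearest in kind to the members. With the samples in only 2 groups, a likeness of this sort mostly reflects a similar difference between strains.

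The cells were checked against markers, since a bulk library cannot tell fewer cells of a type from less RNA per cell. All 11 microglial markers were present, with a summed level of 17168 to 20352 CPM in MRL/lpr and 20073 to 20891 in MRL/mpj, and 3 of them (Gpr34, P2ry13 and Fcrls) fell. Csf1r was the largest part of this sum, with means of 10448 and 9949 CPM. Single markers were less even than the sum. Cx3cr1 had 226, 2819 and 247 CPM in MRL/lpr replicates 1 to 3, against 564, 558 and 564 in MRL/mpj. Olfml3 had 503, 1377 and 1333 CPM in MRL/mpj replicates 1 to 3, against 753, 756 and 835 in MRL/lpr. T and NK cell markers moved in the direction of the members, with 6 of 7 higher and a sum of 18.0 to 22.7 CPM against 3.89 to 4.54. Among them, Cd3e had 2, 0 and 9 counts in MRL/mpj, each under the filter's minimum count of 10, and entered the test through MRL/lpr alone. Of the B and plasma cell markers 2 of 6 rose (Jchain and Mzb1), with a sum of 23.4 to 28.3 CPM against 9.53 to 11.3. Jchain was the largest part of this sum in MRL/lpr, with means of 15.6 against 1.23 CPM. Cd79b, the largest part in MRL/mpj, had means of 6.63 against 8.18 CPM and did not pass (edgeR adjusted p = 0.276). Mzb1 was at 0 counts in each MRL/mpj library, so it too entered the test through MRL/lpr alone. The part of T, NK, B and plasma cells in the increase of the members was not tested.

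Other lists moved less or in the opposite direction. Monocyte markers had 3 of 7 higher and 1 lower, with 91.5 to 106 CPM against 97.0 to 108, and border macrophage markers, which share F13a1 with them, had 2 of 6 lower, with 50.6 to 52.1 against 54.9 to 63.4. Neutrophil markers had 2 of 5 higher, at 316 to 347 against 254 to 292 CPM. Plasmacytoid dendritic cell markers had 1 of 5 higher (Bst2, which is itself induced by interferon) and 1 lower, at 187 to 226 against 147 to 172 CPM. Endothelial markers had 2 of 4 higher, at 1252 to 1423 against 1107 to 1138 CPM. Choroid plexus markers had 3 of 4 lower, at 331 to 345 against 1000.4 to 1078 CPM, neuronal markers 2 of 4 lower, oligodendrocyte markers 1 of 4 lower, and astrocyte markers 0 of 4 in either direction. The part of any of these in the values of the members was not tested.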

How the data were processed

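RNA from CD11b-selected brain cells was sequenced in 3 MRL/lpr and 3 MRL/mpj libraries. Raw counts for each gene, in whole numbers, were deposited by the authors together with FPKM values that the authors had scaled by gene length and depth. The submitters' processing notes name cutadapt 1.9.3, HISAT2 2.0.4, Cuffdiff 2.2.1, Cufflinks and GRCm38. The counting tool, its strand setting and its annotation are not given in the sources used here. The labels describe a stranded kit after removal of ribosomal RNA, the methods a purification of mRNA.

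Of 55401 identifiers, 55141 matched a symbol in GENCODE M21. Counts were filtered with filterByExpr (minimum count 10, minimum total 15), scaled by TMM and tested with edgeR 4.0.16 in R 4.3.3 by the robust quasi-likelihood test without covariates, two-sided, with Benjamini-Hochberg adjustment over all 19554 genes. The study's methods used DESeq2, which was an alternative here (1.42.0), beside limma 3.58.1 on log2(FPKM + 0.1) and log2(FPKM + 1), other scalings and filters, counts divided by 4, the replicate number as a block, and fits that each left out 1 library. The fit was tested on simulated data. Members and lists were chosen with earlier results of these data known. Genes named were the members, the lists, the markers, genes overlapping a member and the 5 most like Oasl1, and other names are said to be chosen later. Identity and shared stretches were computed on GENCODE M21 transcripts. The count matrix gave each library's depth, and intervals on shares cover counting error only. Some genes of the lists and markers are not reported here.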

Additional observations from a re-analysis of the deposited data

How the results depend on the processing

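Over 16 alternatives, Oas1a, Oas1g, Oas2, Oas3, Oasl1 and Oasl2 rose under each, and no member fell. Between 6 and 7 members rose, and 5 to 7 did so with a log2 fold change of at least 1. Log2 fold changes ran from 1.93 to 2.56 for Oas1a, 1.47 to 5.46 for Oas1g, 1.40 to 2.46 for Oas2, 0.80 to 3.29 for Oas3, 2.19 to 2.77 for Oasl1 and 1.10 to 1.84 for Oasl2. The lowest value of each came from log2(FPKM + 1), whose pseudocount shrinks low values. Oas1c did not pass under any alternative, with 0.32 to 0.99 and adjusted p from 0.0772 to 0.268, DESeq2 included.

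With a library left out, Oas1b ran from 1.03 to 1.76 and lost its call in 4 of 6 fits. Oas1b passed under the other 10 alternatives. Genes lower in MRL/lpr numbered 1177 (without MRL/mpj replicate 1) to 1971 in these fits, against 1772, and higher 1626 to 2363, against 2178. Listed pathway genes lower numbered 0 to 1 (1 without MRL/lpr replicate 3), and listed interferon genes lower 0 to 1 (Ifnb1, which passed only without MRL/lpr replicate 2), the main counts being 0 and 1. Fewer libraries leave fewer degrees of freedom.

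Scaling by library size only gave 1634 genes higher and 2790 lower, with the median of all genes at -0.13. It gave 2 pathway genes and 2 interferon genes lower, as did both fits on FPKM. Pathway genes higher, 7 in the main comparison, numbered 6 with library size only and with the replicate block (without Pde12), 5 in both fits on FPKM (without Pde12 and Ifih1) and 6 to 7 with a library left out. The cause was not tested. Oas1b then stood at 1.15 (adjusted p = 0.045).

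Replicate numbers did not pair the libraries: deviations of same-numbered libraries had correlations of -0.04, -0.02 and -0.03 across genes. With the replicate block, 7 members rose and no member call changed, 1754 genes were higher and 1309 lower, and 0 interferon genes were lower. Pde12 (adjusted p = 0.0828), Tyk2 (0.0540) and Ifnb1 (0.0597) lost their calls, and Irf1 (0.0485) gained one.

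Counts piled up at 4 limit what the few Oas1g reads in MRL/mpj can show.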
